A study of Homo sapiens with 4 samples.

Results

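Peaks of the transcription factor TEAD4 were examined around the starts of 5 genes whose products hold back apoptosis, BIRC2, BIRC3, BIRC5, BCL2L1 and MCL1. The data come from chromatin immunoprecipitation and sequencing (ChIP-seq) of TEAD4 in the human gastric cancer lines MKN28 and SNU216. For each of them 1 library was made with the TEAD4 antibody and 1 from input DNA without it, and the labels name no treatment or genetic change. The authors deposited 1 peak list per line, called with MACS against the input of that line on the genome build hg19. MKN28 is recorded in registers of misidentified lines as a derivative of the gastric line MKN74, and each line is a single tumour-derived culture. A peak was taken when its midpoint lay within 50 kb of one of the 5 starts, and was counted once, at the nearest start. This gave 26 of 39477 peaks in MKN28 and 17 of 11540 in SNU216, so 43 of 51017 peaks in all, and each of the 5 genes had at least 1 peak in both lines. Because each line had a single TEAD4 library, differences between MKN28 and SNU216 could not be set against replicate spread, and no test was made. The lists hold no read counts, so depth is unknown, and a site without a peak was only below the authors' threshold.

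Apoptosis is held back at separate steps by 2 families represented here. Inhibitor of apoptosis proteins (the BIRC genes) carry baculoviral repeat domains and act at caspases and at the receptor complexes that feed them. Proteins of the BCL2 family (BCL2L1 and MCL1) sit at the mitochondrial outer membrane and bind the family members that would open it. TEAD proteins bind DNA and depend on the co-activators YAP and TAZ, which the Hippo pathway keeps out of the nucleus. Target genes named for YAP and TEAD commonly include BIRC5, and TEAD sites often lie far from gene starts.

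The gene starts in hg19 were chromosome 11 at 102217966 for BIRC2 and at 102188181 for BIRC3, chromosome 17 at 76210277 for BIRC5, chromosome 20 at 30311792 for BCL2L1 and chromosome 1 at 150552214 for MCL1. BIRC2, BIRC3 and BIRC5 are read toward higher coordinates, and BCL2L1 and MCL1 toward lower ones. Upstream and downstream below follow the direction of transcription. The starts of BIRC2 and BIRC3 are 29.8 kb apart, so their 50 kb windows share peaks. Whether a peak lies in an exon or an intron is not given, as no hg19 gene annotation was used here. In RefSeq's gene order, BIRC3 and BIRC2 lie between YAP1, the gene of the TEAD co-activator, and TMEM123. BIRC5 lies between AFMID and TMEM235, BCL2L1 between COX4I2 and TPX2, and MCL1 has ADAMTSL4 and ENSA close by. A peak near one of the 5 starts can therefore also be near another gene.

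The promoters of BIRC3 and BIRC2 are shown because SNU216 had a peak across the start of BIRC3 and peaks just before that of BIRC2. They are the 250 bases before the first start in RefSeq's promoter table, on the build GRCh38.p14, plus strand, at chr11:102317234-102317483 for BIRC3 and chr11:102346964-102347213 for BIRC2. RefSeq's start and the hg19 start used for the peaks need not be the same base, and no coordinate was moved between builds. The SNU216 peaks before BIRC2 ended 867 and 269 bp before the hg19 start, farther off than 250 bases. The BIRC2 letters shown may therefore not lie in a peak. The capitals mark an NF-kB motif (GGGNTTTCC, here on the other strand) in BIRC3 and the first 7 bases of a cyclic AMP response element (TGACGTCA) in BIRC2, whose last base is the first after these 250.
BIRC3: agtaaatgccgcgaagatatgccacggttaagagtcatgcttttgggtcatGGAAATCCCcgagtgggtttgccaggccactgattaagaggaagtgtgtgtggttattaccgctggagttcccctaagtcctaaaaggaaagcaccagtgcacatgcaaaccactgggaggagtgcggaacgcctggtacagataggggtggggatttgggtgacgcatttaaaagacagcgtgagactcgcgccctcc
BIRC2: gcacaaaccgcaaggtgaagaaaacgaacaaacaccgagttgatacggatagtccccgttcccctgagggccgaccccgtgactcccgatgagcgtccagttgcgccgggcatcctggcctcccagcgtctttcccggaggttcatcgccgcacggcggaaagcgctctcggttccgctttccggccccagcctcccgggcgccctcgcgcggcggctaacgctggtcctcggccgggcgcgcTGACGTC

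The TEAD motif GGAATG, searched on both strands, was in 0 of the 5 windows that the table gives for BIRC3, BIRC2 and BCL2L1, each of 250 bases before and 50 after a start. It was in 14.03% of all 35116 windows of the table. The AP-1 motif TGANTCA, for the factor family that often binds beside TEAD, was also in 0 of the 5 windows, against 7.71% of all windows. On both strands likewise, the NF-kB motif was in 1 of the 5 windows, against 1.86% of all windows. The response element was in 2 of the 5, both of BIRC2, against 1.85%. The BIRC2 windows overlap and hold the same match, so the 5 windows are not separate promoters. BIRC3 is a known target of NF-kB, and its match began 199 bases before the start. These last 2 motifs were chosen after the sequences were seen, and the 2 matches marked overlap no other match. The windows differed in base composition, with 15 CpG pairs and 53.3% G and C in that of BIRC3 and 40 CpG pairs and 68.7% in the first of BIRC2, against medians of 14 and 58.7% over all windows. A match or its absence describes these letters only.

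TEAD4 peaks lay around all 5 genes in both lines, with most at BCL2L1 and MCL1 in MKN28 and at BCL2L1 and BIRC3 in SNU216. The ratio of MKN28 to SNU216 peaks was 1.53 near the 5 starts, against 3.42 for the whole lists. MKN28 had 9 peaks at BCL2L1, 8 at MCL1, 4 each at BIRC3 and BIRC5 and 1 at BIRC2. SNU216 had 5 each at BCL2L1 and BIRC3, 4 at MCL1, 2 at BIRC2 and 1 at BIRC5. SNU216 thus had more peaks than MKN28 at BIRC2 and BIRC3 within 50 kb. This direction depended on the setting. At BIRC3 it was reversed with scores of at least 100 (3 in MKN28, 2 in SNU216) and within 100 kb (9 and 5). At BIRC2 the lines had 2 peaks each within 100 kb. At each gene the higher SNU216 count also rested on a weaker peak beside a stronger one. Its score was 56.7 at BIRC3 and 81.0 at BIRC2, and without it SNU216 would not have the higher count. The ratio of MKN28 to SNU216 peaks was highest at BIRC5, and the difference in number was largest at BCL2L1 and MCL1.

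**Figure D1:**
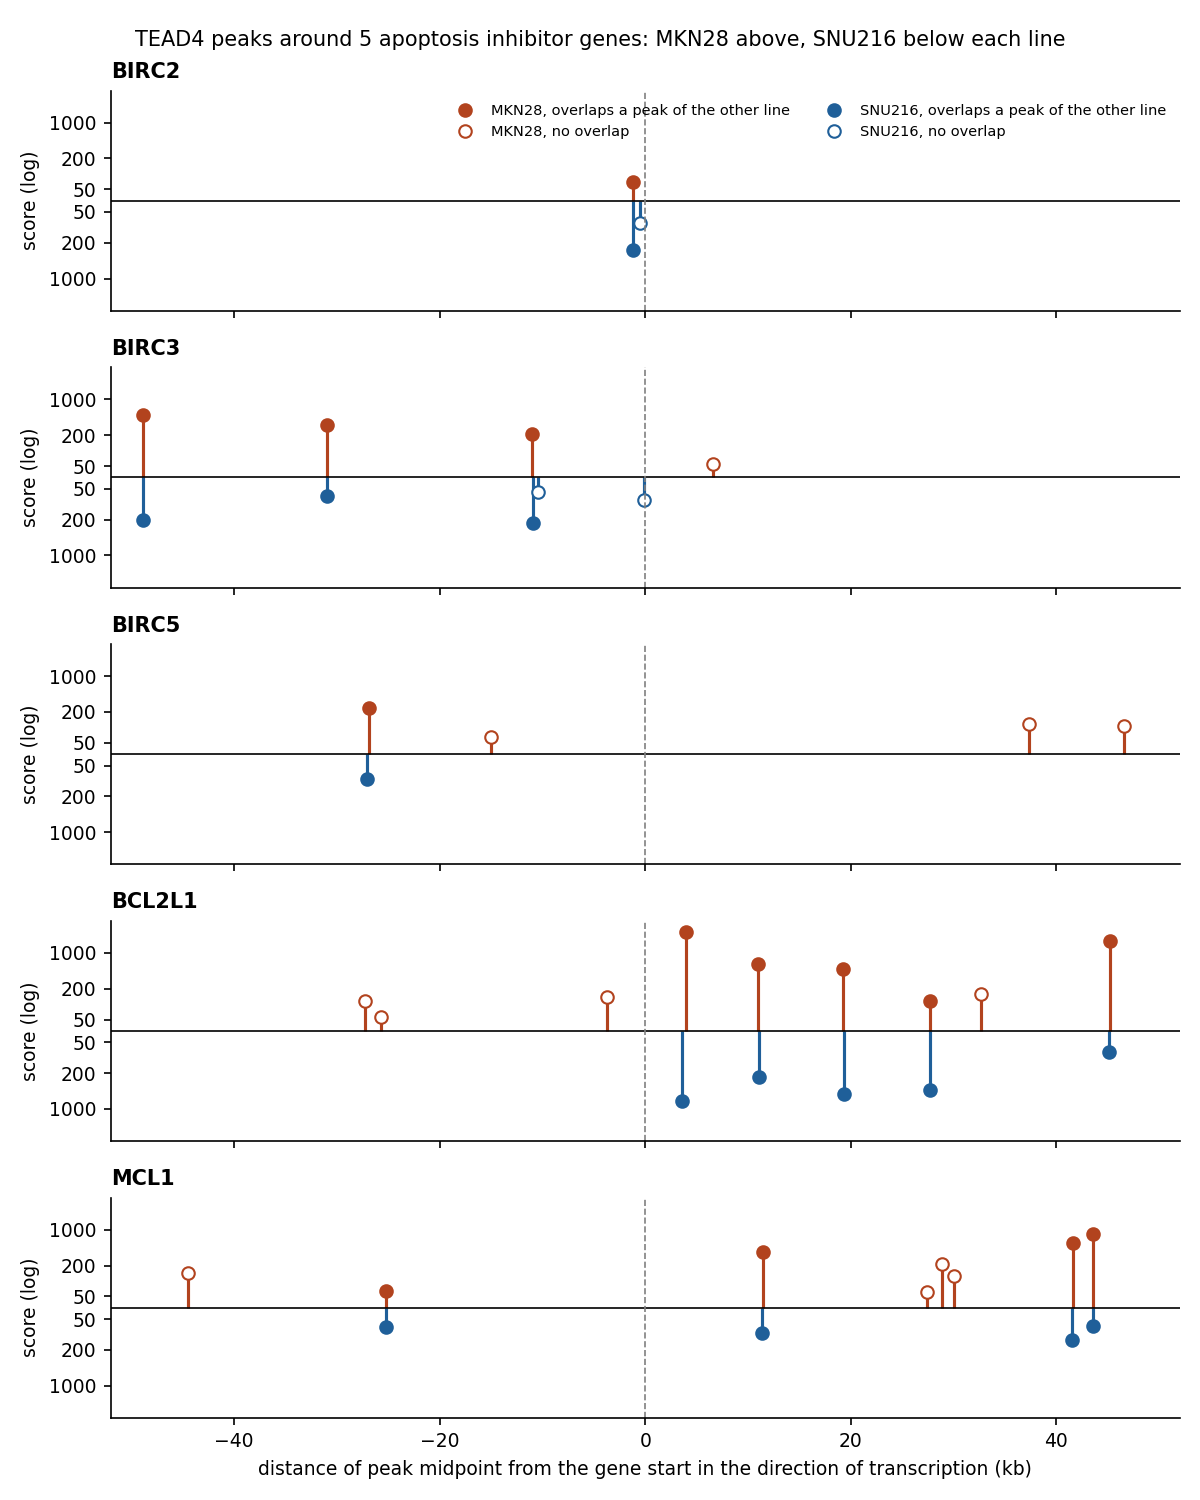
Every TEAD4 peak within 50 kb of the 5 gene starts, by distance of its midpoint from the start (kb, downstream to the right) and by the authors' score on a log scale, with MKN28 above and SNU216 below each horizontal line and sticks that begin at a score of 30. Filled points overlap a peak of the other line, open points do not; BCL2L1 has 5 filled points downstream in each line.

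For scale, chromosomes 1 to 22 and X were divided into 30354 tiles of 100 kb, the length of a gene's window. At least 1 MKN28 peak was in 52.6% of tiles, at least 1 SNU216 peak in 23.5%, and at least 1 of each in 19.8%. Without assigning peaks to the nearer start, the BCL2L1 window held 9 MKN28 and 5 SNU216 peaks. As many or more were found in 0.896% of tiles for MKN28 and in 0.649% for SNU216. The MCL1 window held 8 and 4 peaks, reached in 1.39% and 1.49% of tiles. The BIRC3 window held 5 MKN28 and 7 SNU216 peaks, reached in 6.86% and 0.155% of tiles, and the BIRC2 window held 3 and 5, reached in 18.6% and 0.649%. Every peak in the BIRC2 window was also in that of BIRC3, so these counts are not separate. The BIRC5 window, with 4 and 1, was the least filled in SNU216, since 23.5% of tiles had as many. Tiles include stretches with few genes, so they are a description of the lists and no control for gene starts. Among tiles with peaks of both lines, the MKN28 counts were reached in 3.76% for BCL2L1, 5.66% for MCL1, 23.7% for BIRC3, 35.7% for BIRC5 and 52.9% for BIRC2. The SNU216 counts were reached in 0.783% for BIRC3, 3.26% for BCL2L1 and for BIRC2, 7.38% for MCL1 and 100% for BIRC5.

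**Figure D2:**
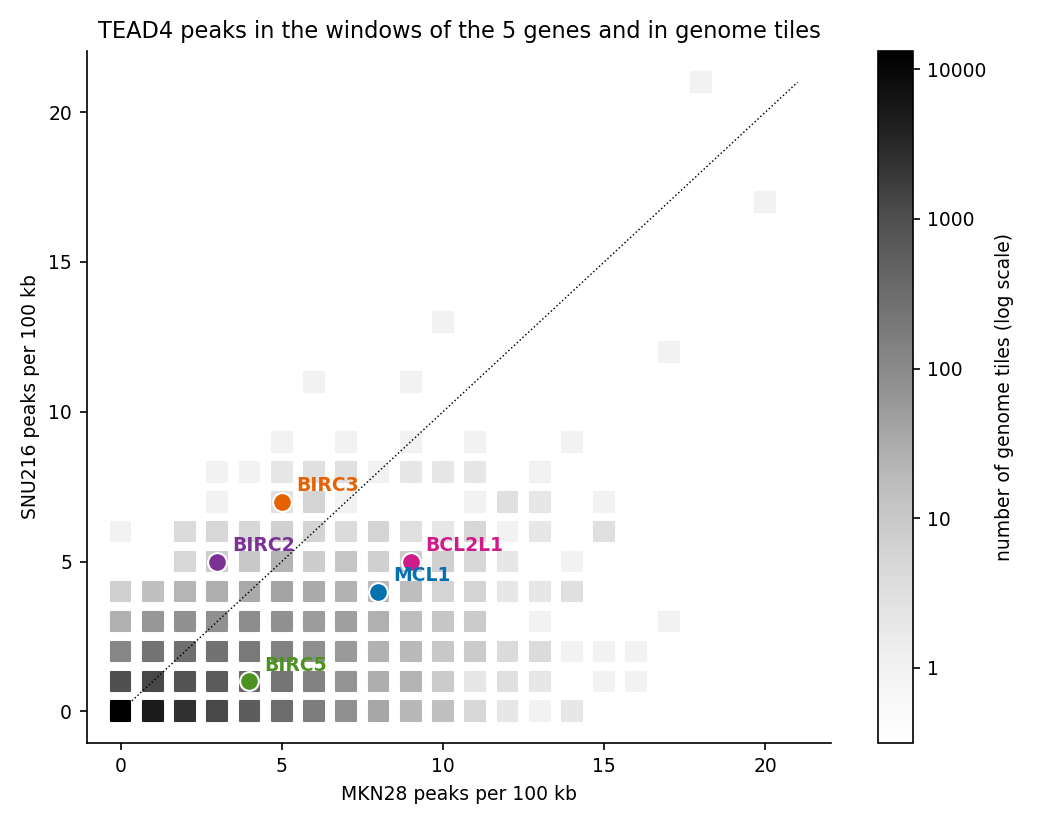
MKN28 peaks (x axis) against SNU216 peaks (y axis) per 100 kb, with the windows of the 5 genes as coloured points and genome tiles as grey squares, darker where more tiles fall. BIRC2 (3 and 5) and BIRC3 (5 and 7) lie above the dotted line of equal counts, and BIRC5 (4 and 1), MCL1 (8 and 4) and BCL2L1 (9 and 5) below it. All peaks of the BIRC2 window are also in the BIRC3 window.

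Between 50 and 100 kb from the nearest of the 5 starts MKN28 had 18 further peaks and SNU216 had 0. The first SNU216 peak outside lay 112 kb from BCL2L1, 129.8 kb from BIRC5, 138 kb from BIRC3 and 297 kb from MCL1. For scale, a tile's centre was at a median of 45.0 kb from the nearest MKN28 midpoint and 164 kb from the nearest SNU216 midpoint. How often windows that hold peaks have such gaps beside them was not counted. At the limit itself, the outermost MKN28 peak inside was 48.8 kb from BIRC3 (score 499) and the nearest outside was 51.9 kb from BIRC5 (score 79.7). In SNU216 the outermost peak inside was 48.9 kb from BIRC3, with a score of 201.

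Of the peaks near the 5 genes, 14 in each line overlapped a peak of the other by at least 1 bp, and they formed 14 pairs. In MKN28 these were 14 of 26, or 53.8% (exact 95% Clopper-Pearson interval 33.4 to 73.4, counting error only), against 17.1% of the whole list. In SNU216 they were 14 of 17, or 82.4% (56.6 to 96.2), against 59.3% of the whole list. The intervals take the peaks as independent, but peaks of a gene lie close together, so the intervals may be too narrow. The MKN28 share was 35% with scores of at least 100 asked of both lists, 31.8% within 100 kb and 91.7% with lists of equal length, against 16.8%, 17.1% and 35.2% of all MKN28 peaks under the same settings. The part that peak score plays in these shares was not tested, but overlap and score move together in both lists. Among peaks with a score of 100 or more, 12 of 20 MKN28 peaks near the genes overlapped, against 27.3% of such MKN28 peaks in general. For SNU216 it was 8 of 8, against 79.2%. Among lower-scoring peaks it was 2 of 6 in MKN28, against 6.92%, and 6 of 9 in SNU216, against 44.8%. The SNU216 peaks without an MKN28 peak were all at the pair BIRC2 and BIRC3, and numbered 3.

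BIRC2 encodes cIAP1, a ubiquitin ligase of the tumour necrosis factor receptor complex. Its nearest region had a single MKN28 peak, at 102216464 to 102217155, with a midpoint 1.16 kb upstream of the start and a score of 68.6. The SNU216 peak at the same place, 102216450 to 102217099, scored 277, and 636 bp were common to both intervals. The SNU216 score exceeded 88.4% of its list and the MKN28 score 28.8% of its own. SNU216 had a second peak closer in, at 102217253 to 102217697, which ended 269 bp before the start and scored 81.0, with no MKN28 counterpart. The MKN28 peak ended 811 bp before the start, so neither line had a peak across it.

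BIRC3 encodes cIAP2, a close relative of cIAP1 that acts in the same receptor complexes. SNU216 had a peak across the start, at 102187872 to 102188263, running from 309 bp upstream to 82 bp downstream with a score of 82.5. It was the only one of the 43 peaks that covered a start, and it overlapped no MKN28 peak. The MKN28 peak closest to the start lay 6.57 kb downstream and scored 54.6, near the bottom of its list, without an SNU216 counterpart.

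Upstream of BIRC3, on the side of YAP1, 3 sites were called in both lines. At 48.8 kb the MKN28 peak scored 499 and the SNU216 peak 201. At 30.9 kb the MKN28 score was 311 and the SNU216 score 69.6, and at 10.9 kb they were 208 in MKN28 and 235 in SNU216. The MKN28 scores were lower at each site nearer the start, while in SNU216 the middle site was lowest and the nearest highest. A further SNU216 peak of score 56.7 lay beside the last of these, 10.4 kb upstream, without an MKN28 counterpart. All 5 SNU216 peaks assigned to BIRC3 were upstream or across the start, against 3 of 4 in MKN28. Assignment to the nearer start favours this side, since BIRC2 begins 29.8 kb downstream and takes the peaks closer to it. Without assignment the BIRC3 window held 7 SNU216 and 5 MKN28 peaks, and the added ones were the BIRC2 peaks, downstream of BIRC3.

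The higher SNU216 count within 50 kb of this pair of genes was the less usual direction. It rested on the weaker neighbouring peaks of scores 56.7 and 81.0. More SNU216 than MKN28 peaks were found in 9.61% of the 17083 tiles with a peak of either line. Among the 197 tiles with 5 or more SNU216 peaks, as in the windows of BIRC2 and BIRC3, the share was 36%.

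BIRC5 encodes survivin, which besides its role in apoptosis is a subunit of the chromosomal passenger complex of dividing cells. No peak midpoint lay within 15 kb of its start in either line. Of tile centres, 25.8% had an MKN28 midpoint and 9.22% an SNU216 midpoint that close, but tiles are no control for gene starts. The only site called in both lines was upstream, at 76182896 to 76183897 in MKN28, 26.9 kb from the start with a score of 241, and at 76182991 to 76183472 in SNU216 with a score of 92.2. The MKN28 interval, at 1002 bp, was wider than the 482 bp of SNU216 and contained it. The other 3 MKN28 peaks were 15.03 kb upstream (score 65.8), 37.4 kb downstream (114) and 46.6 kb downstream (107). By rank the MKN28 peaks were spread, outscoring between 25.5% and 79.7% of their list with a median of 54.8%, and the single SNU216 peak outscored 54.2% of its own.

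BCL2L1 encodes BCL-xL, and by alternative splicing a shorter product that promotes apoptosis. It carried the highest scores of the 5 genes in both lines. All 5 SNU216 peaks lay downstream of the start, that is, in the direction in which the gene is read, and each overlapped an MKN28 peak. MKN28 had 6 peaks downstream and 3 upstream, and the 3 upstream, at 3.73, 25.7 and 27.3 kb, scored 139, 56.3 and 116 without an SNU216 counterpart.

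The closest site called in both lines was at 30307073 to 30308506 in MKN28 and at 30307790 to 30308654 in SNU216, beginning 3286 and 3138 bp downstream. It scored 2522 in MKN28, rank 39 of the 39477 peaks, and 697 in SNU216, rank 232 of 11540. The midpoints were 432.5 bp apart and 717 bp were common to both, so that this pair was the most displaced of the 14. At 11.1 kb downstream the scores were 606 in MKN28 and 234 in SNU216, and at 19.3 kb they were 495.5 in MKN28 and 502 in SNU216.

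The 2 outer sites of BCL2L1 called in both lines diverged in opposite directions. At 27.7 kb downstream the MKN28 peak scored 115 and the SNU216 peak 422, and their midpoints were 9 bp apart. At 45.2 kb downstream the MKN28 peak scored 1724, rank 165 of its list, and the SNU216 peak 76.1, which exceeded 43.2% of its own. A MKN28 peak of score 156 between them, 32.6 kb downstream, had no SNU216 counterpart, and at 296 bp it was the narrowest of the 26. On chromosome 20 as a whole, BCL2L1 accounted for 9 of 1285 MKN28 peaks, including the chromosome's highest score, and for 5 of 522 SNU216 peaks, whose best ranked 16 on the chromosome.

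MCL1 encodes a short-lived relative of BCL-xL that many tumour cells need for survival. Neither line had a peak midpoint within 11 kb of its start. The site nearest to it was 11.5 kb downstream, at 150540270 to 150541149 in MKN28 with a score of 364 and at 150540671 to 150541056 in SNU216 with a score of 94.9. A pair of neighbouring sites further downstream carried the strongest MKN28 peaks of this gene. At 43.6 kb the scores were 839 in MKN28 and 69.1 in SNU216, and at 41.6 kb they were 547.5 in MKN28 and 126 in SNU216. The MKN28 order of these neighbours was therefore reversed in SNU216.

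Upstream of MCL1, a weak site at 25.3 kb was called in both lines, with scores of 65.03 in MKN28 and 70.4 in SNU216. MKN28 alone had a peak 44.5 kb upstream (score 145) and a group of 3 between 27.4 and 30.01 kb downstream, which scored 61.2, 219 and 123. All 4 SNU216 peaks of MCL1 overlapped an MKN28 peak, against 4 of 8 the other way.

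In the 14 pairs, the MKN28 score was the higher in 9 and the SNU216 score in 5. Over all 6841 SNU216 peaks with an MKN28 partner, the SNU216 score was the higher in 24.7%. The 5 pairs were the BIRC2 promoter-proximal site, the 10.9 kb site of BIRC3, the 19.3 and 27.7 kb sites of BCL2L1 and the 25.3 kb site of MCL1. In 3 of these 5 the scores were nearly equal, with MKN28 to SNU216 ratios of 0.885, 0.987 and 0.924. The BIRC2 site (ratio 0.248) and the 27.7 kb site of BCL2L1 (0.272) stood lower, and a ratio under 0.5 was found in 7.104% of all pairs. At the other end were the 45.2 kb site of BCL2L1, with a ratio of 22.7, and the 43.6 kb site of MCL1, with 12.2. The median ratio was 2.60 in the 14 pairs and 1.77 in all pairs, with quartiles of 1.01 and 3.30 in all pairs. Scores of separate callings depend on depth and on the input, so these ratios describe the 2 libraries only.

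**Figure D3:**
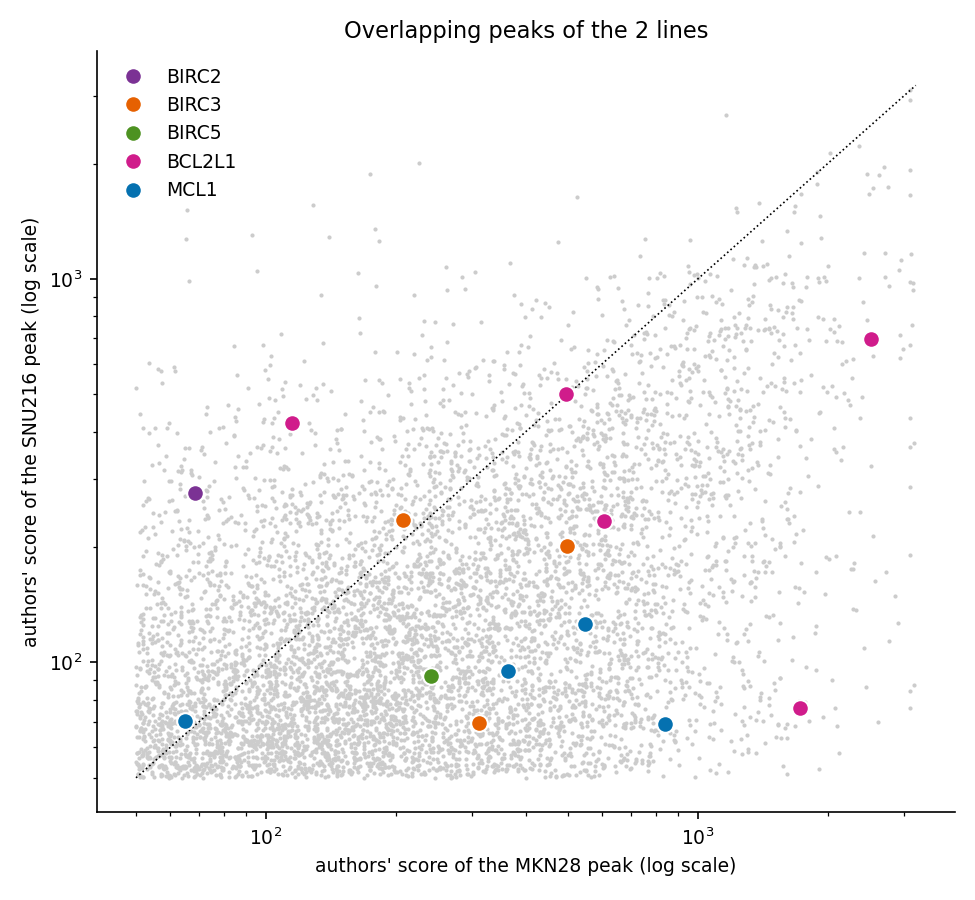
The authors' score of each SNU216 peak (y axis, log scale) against that of its highest-scoring overlapping MKN28 peak (x axis, log scale), with the 14 pairs near the 5 genes coloured and all 6841 pairs in grey. The BIRC2 pair and 1 BCL2L1 pair lie well above the dotted line of equal scores, and 1 BCL2L1 pair and 1 MCL1 pair far below it.

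Peaks near the 5 genes stood above the middle of the MKN28 list by score and closer to it in SNU216. The MKN28 peaks near the 5 genes had a median score of 151, against 99.8 in the whole list, and 20 of 26 scored at least 100, against 49.9% of the list. The SNU216 peaks had a median of 94.9, against 84.7, and 8 of 17 scored at least 100, against 42.2%. By gene, the median MKN28 peak exceeded 80.5% of the list at BIRC3, 71.3% at MCL1 and 67.9% at BCL2L1. It exceeded 54.8% at BIRC5 and 28.8% at BIRC2, where there was a single peak. In SNU216 the figure was 94.3% at BCL2L1, 67.8% at BIRC2, 54.2% at BIRC5 (a single peak), 48.3% at BIRC3 and 46.8% at MCL1. By this median BCL2L1 ranked highest in SNU216. The SNU216 peaks of BIRC3 were spread, outscoring between 16.2% and 84.9% of the list, and those of MCL1 between 36.2% and 67.1%.

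Peaks at BCL2L1 were also wide for their score. Most SNU216 peaks near the other genes were above the median width for their score, some of them only slightly. Each list was cut into 50 groups of neighbouring score ranks, and a peak's width was expressed relative to its group's median. At BCL2L1 the median of this relative width was 1.30 in MKN28, with 8 of 9 peaks above 1, and 1.36 in SNU216, with 5 of 5 above 1. At the other genes the medians ran from 1 (BIRC3) to 1.52 (the single BIRC2 peak) in MKN28, and from 1.02 (BIRC3) to 1.16 (BIRC2) in SNU216. Of the MKN28 peaks near the 5 genes 4 of 26 were 1 kb or wider, against 4.05% of the list, and 3 of these 4 were at BCL2L1. In SNU216 it was 0 of 17, against 1.4%. Over all 5 genes, a relative width above 1 was found in 18 of 26 MKN28 peaks, against 19657 of 39477 in the list. In SNU216 it was found in 15 of 17, against 5673 of 11540. The part of peak width in the scores at BCL2L1 was not tested.

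**Figure D4:**
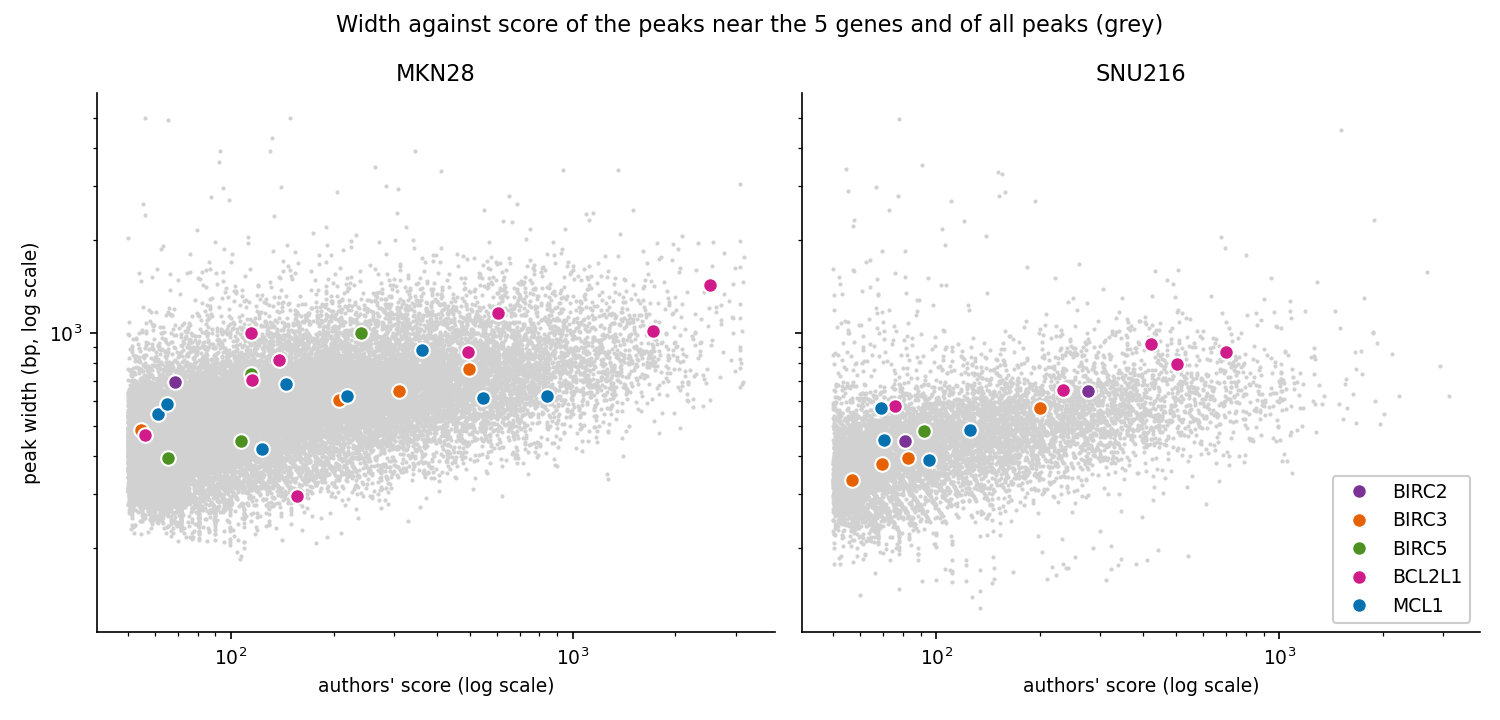
Peak width (bp, log scale) against the authors' score (log scale) in MKN28 (left) and SNU216 (right), with the peaks near the 5 genes coloured and all peaks of the list in grey. At BCL2L1, 8 of 9 MKN28 peaks and 5 of 5 SNU216 peaks lie above the median width for their score, and the exception is the 296 bp peak of MKN28.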

How the data were processed

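TEAD4 ChIP-seq peaks of MKN28 and SNU216 were analysed as deposited, 1 list per line. Per the submitters' processing notes, the tools were Bowtie2 2.0.0, CASAVA 1.8 and MACS and the build was hg19. How MACS was set, its version and any filtering of reads or duplicates: not given in the sources used here. In each file the authors deposited a position and a score per peak, without a header, and called each TEAD4 library against its own input without pooling, per the names of the lists. The lowest deposited score was 50 in MKN28 and 50.01 in SNU216. The scale of the score is not stated, so scores were ranked within a list, and scores set side by side describe these libraries.

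Starts were converted to 1-based coordinates. Overlap meant at least 1 bp, and a peak with several partners was paired with the highest-scoring one. Tiles ran from each chromosome's start to its last peak. All 5 genes were named, with every peak in their windows. The members, lists and comparisons were chosen with earlier results of these data known. A planned count for other apoptosis genes was not made, since it needs hg19 starts. Strands of BIRC5 and MCL1 are textbook knowledge. RefSeq's promoter table matched 3 of the 5 genes. The steps were tested on simulated data. Python 3.11.15, numpy 2.4.6, pandas 2.3.3, scipy 1.17.1 and matplotlib 3.10.9 were used.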

Additional observations from a re-analysis of the deposited data

How the results depend on the processing

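The number of MKN28 peaks near the 5 starts was 9 within 25 kb, 44 within 100 kb and 12 with only the 11540 best-scoring MKN28 peaks, against 26 as reported. The SNU216 number was 9 within 25 kb and 8 when both lists were limited to scores of 100 or more, against 17. The share of MKN28 peaks that overlapped an SNU216 peak was 91.7% with the MKN28 list of equal length, 31.8% within 100 kb and 35% with scores of 100 or more in both, against 53.8%. All MKN28 peaks gave 35.2%, 17.1% and 16.8% under these settings. Fewer or more peaks follow from the construction of these settings. The share of SNU216 peaks that overlapped an MKN28 peak was 82.4% as reported. It ranged from 64.7% with lists of equal length to 87.5% with a score of at least 100. All SNU216 peaks gave 36.1% and 68.7% under these settings. Asking for an overlap of 50% of both peaks gave 46.2% in MKN28 and 70.6% in SNU216, against 14.1% and 48.2% of all peaks. Midpoints within 200 bp gave 50% and 76.5%, against 16.0% and 54.6%. Placing peaks by any base in place of the midpoint changed neither count. Of 50 counts recomputed per gene, 30 stayed within 1.5 times the reported count and 20 did not. The 30 include the SNU216 counts with the MKN28 list of equal length, which could not change because only the MKN28 list was cut. With a score of at least 100, or with lists of equal length, no MKN28 peak was left at BIRC2. At BIRC3, MKN28 had 3 peaks and SNU216 2 with a score of at least 100, and 9 and 5 within 100 kb. No paired analysis was possible because there was a single library per group, and for the same reason no replicate could be left out. Unknown depth limits every statement on a peak found in 1 line.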
